A study of Mus musculus with 24 samples.

Results

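The transcripts described here are 8 genes whose products the lung epithelium secretes or makes in quantity: the surfactant protein genes Sftpa1, Sftpb, Sftpc and Sftpd, the club cell genes Scgb1a1, Scgb3a2 and Cyp2f2, and the lysozyme gene Lyz1. They are 8 of 49022 genes found in both deposited count tables. They were chosen because they were abundant in the interstitial gate of wild-type mice given PBS and far lower after bleomycin, so that fall is described here without a test. All were measured by bulk sequencing of polyadenylated RNA from sorted mouse lung macrophages, in 24 libraries that form 8 groups of 3.

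Surfactant is the film of lipid and protein that lowers surface tension in the air spaces. Alveolar type 2 cells make it, store it in lamellar bodies and release it, and alveolar macrophages take up and degrade much of what is used. Club cells line the small airways, secrete secretoglobins and carry cytochrome P450 enzymes.

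Lungs came from wild-type C57BL/6J mice or from knock-in mice in which EGFP reports Spp1, the gene of the secreted matrix protein osteopontin. Bleomycin, an agent whose lung injury serves as a model of fibrosis, was given into the trachea at 3 µg per g body weight, and controls received PBS by the same route. CD11b+ SiglecF- cells are called interstitial macrophages (IMs) and CD11b- SiglecF+ cells alveolar macrophages (AMs). The wild-type groups are IMs at day 7 after PBS and at day 7 after bleomycin, with no sort on EGFP. All other groups are from reporter mice. Bleomycin-treated reporter IMs were split by EGFP at day 7, while the IMs of day 14 were EGFP+ only. The AM groups, all sorted as EGFP+, are those of PBS-treated mice (day 7) and those of bleomycin-treated mice (day 14, day 30). The labels give neither the ages of the mice nor whether animals were pooled. Nothing in them says that the 3 libraries of a group came from separate mice, so p-values measure the spread between these libraries, which may be technical.

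Libraries held 13450053 to 24580620 counts. Levels are in CPM, the counts scaled to a common library total. The group mean of Spp1 was 91.3 CPM in wild-type PBS IMs, 3437 CPM in wild-type bleomycin IMs, and 518 CPM in EGFP- and 4103 CPM in EGFP+ IMs at day 7. In AM libraries it was 191 to 210 CPM after PBS, 3704 to 6411 CPM at day 14 and 6733 to 6978 CPM at day 30. The PBS AMs, though sorted as EGFP+, were thus below the EGFP- IMs, at 449 to 552 CPM. Siglecf, the gene of SiglecF, ranged from 2.43 to 25.7 CPM over the 15 IM libraries and from 108 to 428 CPM over the 9 AM libraries. In wild-type PBS IMs the summed level of 10 neutrophil markers was 7933 to 9385 CPM, close to that of 6 macrophage markers at 10336 to 10518 CPM. Of the EGFP+ IMs at day 7, replicate 3 was the highest library for 7 of the 8 genes. Replicate 1 of the EGFP+ IMs at day 14 stood apart in Lyz2, the gene of the main macrophage lysozyme, at 12016 CPM against 33294 and 46284 CPM.

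Lyz1 has a near copy beside it on chromosome 10, Lyz2, which was far more abundant in every library, so the sequences that tell the genes apart bear on every Lyz1 value. The coding sequences are both 444 bases long and differ at 22 of them. The most divergent stretch of 90 coding bases is shown from the GRCm38 genome, on the minus strand, with its 13 differing bases in capitals. The Lyz1 stretch lies at chr10:117292707-117292796 and the Lyz2 stretch at chr10:117282111-117282200, in both cases within a coding exon.
Lyz1: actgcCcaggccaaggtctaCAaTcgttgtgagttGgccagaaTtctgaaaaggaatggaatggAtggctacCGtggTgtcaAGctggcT
Lyz2: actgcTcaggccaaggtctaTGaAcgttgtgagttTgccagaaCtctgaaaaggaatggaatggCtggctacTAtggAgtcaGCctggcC
Of the 1114 windows of 150 bases in the Lyz1 transcript, the length of 1 read end, 0 occur unchanged in Lyz2, and the longest stretch both share is 118 bases. How the authors' counting treated reads that align to both genes is not given in the sources used here.

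Promoters are shown for Sftpa1 and Sftpb, the 2 surfactant genes for which a promoter was matched. The sequences are from RefSeq on GRCm38.p6, on the plus strand, and 4 of the 8 genes were matched. Capitals mark the letters CTCAAG, a core motif of the lung epithelial factor NKX2-1, and GCAAACA, the reverse complement of TGTTTGC, a motif of the FOXA factors. The Sftpa1 window lies at chr14:41131538-41131787 and the Sftpb window at chr6:72304360-72304609.
Sftpa1: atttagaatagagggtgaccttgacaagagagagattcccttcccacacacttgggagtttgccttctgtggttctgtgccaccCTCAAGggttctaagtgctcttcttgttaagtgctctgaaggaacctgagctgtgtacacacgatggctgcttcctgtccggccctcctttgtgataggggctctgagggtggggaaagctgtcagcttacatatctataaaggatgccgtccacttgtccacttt
Sftpb: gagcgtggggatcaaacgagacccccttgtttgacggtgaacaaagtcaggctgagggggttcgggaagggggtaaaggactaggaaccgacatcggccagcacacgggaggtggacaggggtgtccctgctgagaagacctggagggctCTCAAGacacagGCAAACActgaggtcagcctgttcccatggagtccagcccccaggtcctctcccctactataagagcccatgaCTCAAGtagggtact
On either strand, CTCAAG occurs in 13.3% of 32851 promoters of this length, TGTTTAC or TGTTTGC in 7.29%, and GAGGAAGT, a motif of the macrophage factor PU.1, in 2.44%. GAGGAAGT was in none of the 4 windows, and those of Cyp2f2 and Lyz1 held none of these letters. A match is a description of the sequence, not of a bound site.

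Sftpc (ENSMUSG00000022097, GRCm38 chromosome 14, 70520941 to 70524081, minus strand) encodes surfactant protein C, a hydrophobic peptide of the surfactant film that marks alveolar type 2 cells. Its level was 1481, 1252 and 1353 CPM in the wild-type PBS IMs and 7.80, 10.2 and 9.06 CPM in the wild-type bleomycin IMs. Every PBS library was thus far above every bleomycin library, and the mean after bleomycin was 0.662% of that after PBS. The EGFP- IMs at day 7 held 7.83, 13.6 and 11.6 CPM, the EGFP+ IMs at day 7 held 4.30, 18.1 and 32.4 CPM, and the EGFP+ IMs at day 14 held 0.572, 1.34 and 2.40 CPM. The day 7 gates overlapped, and all of the day 14 libraries were below them. The PBS AMs held 51.1, 59.1 and 59.5 CPM, the day 14 AMs 1.89, 1.04 and 1.36 CPM, and the day 30 AMs 16.2, 26.6 and 22.1 CPM. The 3 AM groups did not overlap: they were highest after PBS, lowest at day 14 and between at day 30. In AMs Sftpc was 34.4-fold lower at day 14 than after PBS (log2 fold change -5.10 ± 0.21 SE, adjusted p = 1.56e-11 by edgeR's quasi-likelihood test). It was 14.2-fold higher at day 30 than at day 14 (3.83 ± 0.22, adjusted p = 3.55e-09), and 2.42-fold lower at day 30 than after PBS (-1.27 ± 0.15, adjusted p = 3.81e-06).

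Sftpb (ENSMUSG00000056370, GRCm38 chromosome 6, 72304610 to 72314371, plus strand) encodes surfactant protein B, which is needed to spread and store surfactant lipid. Its level was 352, 302 and 275 CPM in the wild-type PBS IMs and 3.57, 6.67 and 5.89 CPM in the wild-type bleomycin IMs. The EGFP- IMs at day 7 held 6.48, 6.44 and 6.48 CPM, within the range of the EGFP+ IMs at 3.87, 5.28 and 9.06 CPM. At day 14 the IMs held 0.643, 0.830 and 0.369 CPM, all below day 7. AMs held 10.9, 12.3 and 11.1 CPM after PBS, 0.270, 0.372 and 0 CPM at day 14, and 2.91, 4.97 and 6.58 CPM at day 30, again with no overlap. Day 14 was 47.4-fold below PBS in AMs (log2 fold change -5.57 ± 0.44 SE) and day 30 was 2.20-fold below PBS (-1.14 ± 0.27, adjusted p = 0.00228 by edgeR). Day 30 was 21.5-fold above day 14 (4.43 ± 0.48). Sftpb reached the level that the filter on low counts asks for in no day 14 AM library, so the folds against day 14 carry no p-value. The day 14 AM libraries hold 9 Sftpb counts in all, and leaving one out moved the fold. The log2 change from PBS was -6.17 without day 14 AM replicate 2 and -4.97 without replicate 3, and that from day 14 to day 30 was 5.02 and 3.83.

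Sftpa1 (ENSMUSG00000021789, GRCm38 chromosome 14, 41131782 to 41136452, plus strand) encodes surfactant protein A, a collectin that binds microbes and surfactant lipid. Its level was 394, 329 and 345 CPM in the wild-type PBS IMs and 1.33, 2.30 and 3.60 CPM in the wild-type bleomycin IMs. The PBS AMs held 12.5, 15.99 and 17.3 CPM, and the day 30 AMs 3.16, 5.54 and 4.47 CPM. In the day 14 AMs it was close to the limit of detection, with 3, 4 and 3 counts, and in the EGFP+ IMs at day 14 it had 1, 5 and 7 counts. It was 56.9-fold lower in AMs at day 14 than after PBS (log2 fold change -5.83 ± 0.32 SE by edgeR) and 17.7-fold higher at day 30 than at day 14 (4.15 ± 0.36). It reached the level that the filter on low counts asks for in no day 14 AM library, so these folds carry no p-value. Day 30 remained 3.21-fold below PBS (-1.68 ± 0.20, adjusted p = 2.66e-06).

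Sftpd (ENSMUSG00000021795, GRCm38 chromosome 14, 41172212 to 41185198, minus strand) lies near Sftpa1 and encodes surfactant protein D, the other lung collectin. Its level was 85.7, 68.3 and 76.7 CPM in the wild-type PBS IMs and 0.847, 1.18 and 1.30 CPM after bleomycin. The PBS AMs held 2.14, 2.64 and 2.41 CPM and the day 30 AMs 1.64, 1.85 and 2.17 CPM, ranges that overlap. It was the 1 surfactant gene without a call between these groups (log2 fold change -0.23 ± 0.36 SE, 95% interval -0.94 to 0.47, adjusted p = 0.619 by edgeR), although that interval does not show that the levels were alike. The day 14 AMs held 3 Sftpd counts, all in 1 library, against 160 after PBS and 89 at day 30. The ratio of CPM sums was 0.0286 of the PBS level (95% counting interval 0.00583 to 0.085) and day 30 was 27.4 times day 14 (9.07 to 135). These counting intervals cover counting error only.

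**Figure D1:**
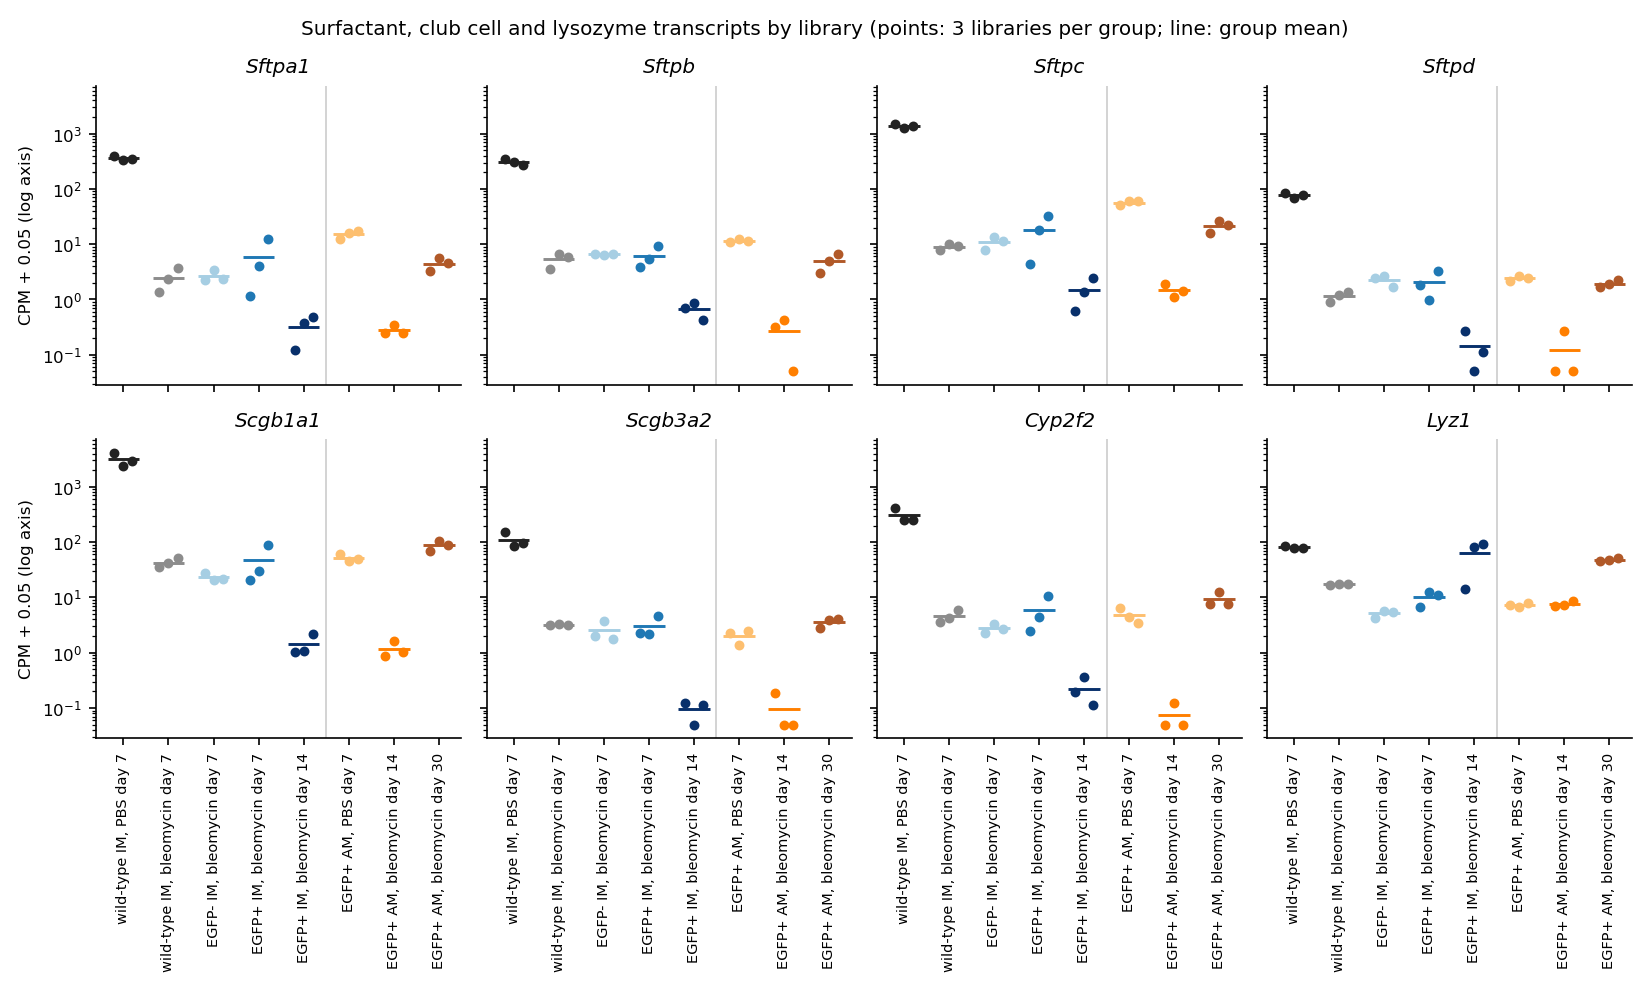
Each panel shows 1 gene, with its level in every library (CPM plus an offset of 0.05, log axis) for the 8 groups of 3 libraries; horizontal lines are group means. The wild-type PBS IMs are the highest group in all 8 panels, with Sftpc at 1252 to 1481 CPM there, and in all panels but that of Lyz1 the IMs and AMs at day 14 are lowest.

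Scgb1a1 (ENSMUSG00000024653, GRCm38 chromosome 19, 9083636 to 9087958, minus strand) encodes the club cell secretory protein, the main secretoglobin of the small airways. In the wild-type PBS IMs it was the most abundant of the 8 transcripts, also per kilobase of exon, at 6639 CPM per kilobase against 1317 for Sftpc. Its level was 4123, 2391 and 2966 CPM in the wild-type PBS IMs and 34.8, 41.8 and 50.7 CPM after bleomycin, 1.34% of the PBS mean. The EGFP- IMs at day 7 held 28.0, 20.9 and 21.6 CPM, the EGFP+ IMs at day 7 held 20.8, 29.5 and 90.2 CPM, and the EGFP+ IMs at day 14 had 14, 16 and 35 counts. The day 7 gates overlapped, with a single high library in the EGFP+ gate, and day 14 was below both.

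In AMs the order of the groups for Scgb1a1 was another one than for Sftpc. Levels were 60.7, 45.7 and 49.6 CPM in the PBS AMs, 0.809, 1.56 and 0.971 CPM in the day 14 AMs, and 70.0, 105 and 89.3 CPM in the day 30 AMs. Every day 30 library was above every PBS library, and every day 14 library was far below both. Scgb1a1 was 41.4-fold lower at day 14 than after PBS (log2 fold change -5.37 ± 0.24 SE, adjusted p = 2.25e-10 by edgeR) and 75.9-fold higher at day 30 than at day 14 (6.25 ± 0.23, adjusted p = 1.45e-10). Day 30 was 1.83-fold above PBS (0.87 ± 0.14, adjusted p = 1.79e-04), a call that was not made with all 24 libraries in 1 fit (0.87, adjusted p = 0.0701; 4.68e-16 to 0.0701 over all alternatives).

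Scgb3a2 (ENSMUSG00000038791, GRCm38 chromosome 18, 43764289 to 43767399, plus strand) encodes a second airway secretoglobin. Its level was 151, 84.8 and 97.6 CPM in the wild-type PBS IMs and 3.15, 3.31 and 3.10 CPM after bleomycin, 2.86% of the PBS mean. The PBS AMs held 2.22, 1.34 and 2.41 CPM and the day 30 AMs 2.73, 3.89 and 3.95 CPM, which did not overlap. Day 30 was 1.92-fold above PBS (log2 fold change 0.94 ± 0.34 SE, adjusted p = 0.0291 by edgeR). That call was lost when libraries were scaled by their totals alone (adjusted p = 0.0529) and without PBS AM replicate 1 (0.0567) or 2 (0.142) or day 30 AM replicate 2 (0.0910) or 3 (0.0914), within a range of 0.00719 to 0.142 over all alternatives. The day 14 AMs held 2 counts in all, against 130 after PBS (ratio of CPM sums 0.0234, 95% counting interval 0.00281 to 0.0864) and 166 at day 30 (ratio 76.6, 20.9 to 638).

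Cyp2f2 (ENSMUSG00000052974, GRCm38 chromosome 7, 27119909 to 27133660, plus strand) encodes a cytochrome P450 of club cells that activates inhaled toxicants such as naphthalene. Its level was 421, 249 and 249 CPM in the wild-type PBS IMs and 3.57, 4.26 and 5.77 CPM after bleomycin. AMs held 6.34, 4.39 and 3.46 CPM after PBS and 7.65, 12.7 and 7.43 CPM at day 30, when every library was above PBS. Day 30 was 2.11-fold above PBS (log2 fold change 1.08 ± 0.26 SE, adjusted p = 0.00252 by edgeR). The day 14 AMs held 1 count, against 322 after PBS (ratio of CPM sums 0.00473, 95% counting interval 1.19e-04 to 0.0266) and 439 at day 30 (ratio 405, 72.4 to 16041). The antisense gene Gm15883 overlaps Cyp2f2 and moved with it, from 129, 78.1 and 75.9 CPM in the wild-type PBS IMs to 0.726, 1.29 and 1.43 CPM after bleomycin. The strand setting of the counting is not given in the sources used here, so reads of these genes cannot be told apart.

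Lyz1 (ENSMUSG00000069515, GRCm38 chromosome 10, 117287796 to 117292868, minus strand) encodes the lysozyme of intestinal Paneth cells, which in the mouse lung is also found in alveolar type 2 cells. Its level was 86.8, 77.6 and 77.2 CPM in the wild-type PBS IMs and 17.0, 17.5 and 17.4 CPM after bleomycin, 21.5% of the PBS mean, the highest such share of the 8 transcripts. The EGFP- IMs at day 7 held 4.20, 5.67 and 5.47 CPM and the EGFP+ IMs 6.80, 12.7 and 10.8 CPM, and the EGFP+ IMs at day 14 held 14.2, 82.7 and 94.0 CPM. Day 14 was thus above day 7 in every library, where the other 7 transcripts were below. The PBS AMs held 7.18, 6.55 and 7.74 CPM, the day 14 AMs 6.87, 7.36 and 8.55 CPM, and the day 30 AMs 45.1, 47.6 and 52.5 CPM. PBS and day 14 overlapped in AMs, and day 30 was apart from both.

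Lyz1 was 6.05-fold higher in AMs at day 30 than at day 14 (2.60 ± 0.13 SE on the log2 scale, adjusted p = 1.44e-10 by edgeR) and 7.34-fold higher than after PBS (2.88 ± 0.12, adjusted p = 7.02e-12). Between day 14 AMs and PBS AMs it differed by 0.28 ± 0.14 on the log2 scale (adjusted p = 0.0908), which passed without day 14 AM replicate 1 (adjusted p = 0.0494; 0.0494 to 0.672 over all alternatives). In EGFP+ IMs it was 7.60-fold higher at day 14 than at day 7 (2.93 ± 0.67, adjusted p = 0.00788). At day 14 it was 9.34-fold higher in IMs than in AMs (3.22 ± 0.78, adjusted p = 0.0393). That last call was not made with the replicate number as a block (2.88, adjusted p = 0.113) or without the filter on low counts (adjusted p = 0.120). It was also lost without IM replicate 2 (0.116) or 3 (0.129) or AM replicate 1 (0.0893), 2 (0.112) or 3 (0.0892), within a range of 2.06e-10 to 0.129 over all alternatives.

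Lyz2 (ENSMUSG00000069516, GRCm38 chromosome 10, 117277334 to 117282274, minus strand) did not follow Lyz1 after bleomycin in wild-type IMs. It stood at 8305, 8226 and 8395 CPM after PBS and at 13119, 12283 and 11900 CPM after bleomycin. Lyz1 counts per 1000 Lyz2 counts were 9.20 to 10.5 in the wild-type PBS IMs and 1.30 to 1.46 in the wild-type bleomycin IMs. They were 1.49 to 1.89 in the EGFP- IMs at day 7, 0.854 to 1.06 in the EGFP+ IMs at day 7 and 1.18 to 2.48 at day 14. In EGFP+ IMs Lyz2 was higher at day 14, as Lyz1 was. It stood at 7959, 11914 and 11791 CPM at day 7 and at 12016, 33294 and 46284 CPM at day 14. The ratio was 0.277 to 0.313 in the PBS AMs, 0.194 to 0.206 in the day 14 AMs, the lowest of all groups, and 0.782 to 0.891 in the day 30 AMs.

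**Figure D2:**
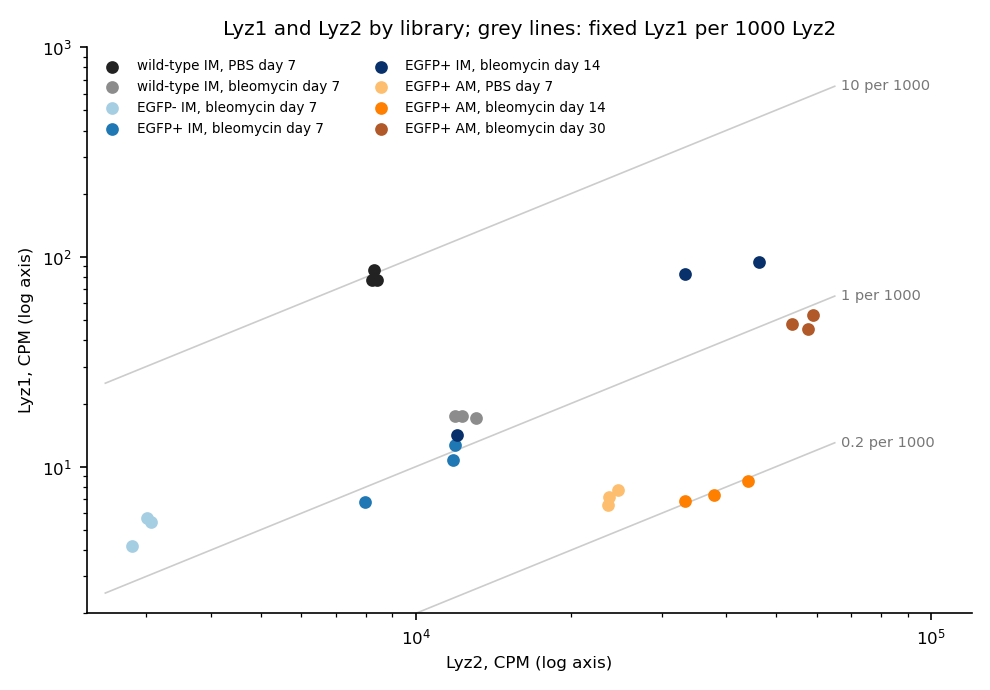
Lyz1 (vertical axis) against Lyz2 (horizontal axis), both in CPM on log axes, with 1 point per library coloured by group and lines at 0.2, 1 and 10 Lyz1 counts per 1000 Lyz2 counts. The wild-type PBS IMs lie near the line of 10, the day 30 AMs near the line of 1 and the day 14 AMs near the line of 0.2.

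The comparison of wild-type IMs after bleomycin and after PBS is the one the transcripts were chosen on, and its values are a description. All 8 were lower in every bleomycin library than in every PBS library, which was true of 33.8% of the genes tested. Sftpc was 155-fold, Sftpa1 153-fold, Scgb1a1 77.0-fold, Sftpd 71.0-fold, Cyp2f2 69.8-fold, Sftpb 59.2-fold and Scgb3a2 35.9-fold lower, and Lyz1 4.81-fold lower. The log2 differences of Sftpa1 and Sftpc, at -7.26 ± 0.20 and -7.28 ± 0.09 (SE), were larger than that of Sftpb, at -5.89 ± 0.20. The median of the 8 was -6.14, beside 0.00 over all genes tested. The summed level of the 7 transcripts other than Lyz1 was 4676 to 7008 CPM after PBS and 55.1 to 79.4 CPM after bleomycin. In sorted bulk samples, fewer cells of a type and less RNA per cell cannot be told apart.

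Other cell types' markers differed between these groups as well. The 10 neutrophil markers summed to 7933 to 9385 CPM after PBS and 1769 to 1867 CPM after bleomycin, the 8 B cell markers to 1549 to 1774 against 464 to 543 CPM, and the 8 fibroblast markers to 158 to 209 against 40.5 to 45.4 CPM. Not every list fell. The 7 NK cell markers rose from 56.5 to 61.1 CPM to 94.6 to 106.6 CPM, and the 8 T cell markers overlapped (149.7 to 161.5 against 161.2 to 166.7 CPM). None of these lists was absent after bleomycin, and their part in the result was not tested. Each of them stood at a larger share of its PBS level than the 7 transcripts did.

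The PBS AMs share the reference with that description, since they were set against the wild-type PBS IMs. All 8 transcripts were lower in every PBS AM library, against 40.3% of the genes tested. Gate, mouse line and the sort on EGFP differ together here and cannot be told apart. Lyz1 was 11.3-fold lower, the surfactant genes 23.4-fold (Sftpa1) to 31.8-fold (Sftpd) lower, and the club cell genes 56.4-fold (Scgb3a2) to 63.3-fold (Cyp2f2) lower. The summed level of the 7 transcripts was 142 to 146 CPM in the PBS AMs.

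In IMs at day 7, EGFP+ and EGFP- cells come from the same mouse line, treatment and gate. None of the 8 transcripts was called by edgeR, where 17.2% of genes tested were called higher and 17.6% lower. DESeq2 called 0 as well, and 1, Cyp2f2, had an unadjusted p under 0.05 in the edgeR fit. Cyp2f2 was 2.06-fold higher in EGFP+ cells (log2 difference 1.04 ± 0.47 SE, 95% interval 0.12 to 1.96, adjusted p = 0.109), Sftpa1 2.11-fold (1.08 ± 0.70, adjusted p = 0.266) and Scgb1a1 1.92-fold (0.94 ± 0.51, adjusted p = 0.197). These differences rest on EGFP+ replicate 3. Without it the log2 differences were 0.29 for Cyp2f2, -0.10 for Sftpa1 and 0.06 for Scgb1a1 (adjusted p = 0.627, 0.917 and 0.881). Without EGFP+ replicate 1, Cyp2f2 (1.41, adjusted p = 0.0218) and Sftpa1 (1.57, adjusted p = 0.0331) were called, so that the adjusted p ranged from 0.0218 to 0.627 and from 0.0331 to 0.917 over all alternatives. The other log2 differences were 0.67 ± 0.64 for Sftpc, 0.22 ± 0.40 for Scgb3a2, -0.15 ± 0.28 for Sftpb and -0.19 ± 0.46 for Sftpd. All 4 changed sign without a single library, to -0.03 for Sftpc and -0.24 for Scgb3a2 without EGFP+ replicate 3, 0.09 for Sftpb without EGFP+ replicate 1 and 0.15 for Sftpd without EGFP+ replicate 2. The median of the 8 was 0.79, beside -0.02 over all genes tested.

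Lyz1 was the single transcript whose EGFP+ and EGFP- libraries did not overlap, against 31.3% of genes tested that were higher without overlap. It was 1.89-fold higher in EGFP+ cells (log2 difference 0.92 ± 0.74 SE, 95% interval -0.53 to 2.37, adjusted p = 0.373 by edgeR). The EGFP+ IMs of day 14 enter the estimate of spread in that fit. In a fit of these 6 libraries alone it was called (0.97, adjusted p = 0.00115; 0.00115 to 0.574 over all alternatives). All 10 neutrophil markers were called lower in EGFP+ cells, at a sum of 2147 to 2946 CPM against 4971 to 6489 CPM, while 1 of 8 B cell markers was called higher. Over all genes tested, 17.6% were called lower and 17.2% higher. The summed B cell markers of EGFP+ replicates 1, 2 and 3 were 301, 1303 and 797 CPM. Their part in the result was not tested.

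In EGFP+ IMs Scgb1a1 fell from day 7 to day 14, called by edgeR as were 26.9% of genes tested, and Lyz1 rose, as did 25.3%. Scgb1a1 was lower without overlap of libraries, as were 39.8% of genes tested, and Lyz1 higher without overlap, as were 16.8%. These are the 2 transcripts that reached the level the filter asks for (0.638 CPM) in all 3 day 14 libraries. Sftpb and Sftpc reached it in 2 of them, and Sftpa1, Sftpd, Scgb3a2 and Cyp2f2, with 13, 4, 2 and 8 counts, in none. These 6 passed the filter through the day 7 groups, where they are high. Their falls are thus given without a p-value or a count of calls. The day 7 and day 14 libraries stand in separate tables, so table and day cannot be told apart. Scgb1a1 fell 28.0-fold (log2 fold change -4.81 ± 0.69 SE, adjusted p = 7.77e-04 by edgeR), Cyp2f2 27.2-fold (-4.77 ± 0.69) and Sftpd 18.1-fold (-4.17 ± 0.72). Sftpa1 fell 17.0-fold (-4.09 ± 0.94), Sftpc 10.5-fold (-3.39 ± 0.78) and Sftpb 8.40-fold (-3.07 ± 0.37). Scgb3a2 fell from 142 to 2 counts (ratio of CPM sums 0.0145, 95% counting interval 0.00174 to 0.0534). The falls were smaller without EGFP+ day 7 replicate 3, at -2.91 for Sftpa1, -2.69 for Sftpc, -3.92 for Scgb1a1 and -4.00 for Cyp2f2. Leaving out single day 14 libraries, which hold few counts, gave -5.44 for Sftpd without replicate 1, -5.56 for Cyp2f2 without replicate 2 and -4.04 for Sftpc without replicate 3. Without day 14 replicate 1, Sftpc was at -3.00.

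Other markers fell over the same interval. Over all genes tested, 26.9% were called lower and 25.3% higher. All 10 neutrophil markers, all 8 dendritic cell markers, 5 of 8 B cell markers, 5 of 7 NK cell markers tested and 5 of 7 fibroblast markers tested were called lower. The neutrophil sum went from 2147 to 2946 CPM at day 7 to 137 to 211 CPM at day 14, the B cell sum from 301 to 1303 to 62.0 to 183 CPM, and the fibroblast sum from 9.42 to 21.2 to 3.26 to 4.29 CPM. No summed list reached 0. Single markers that were low at day 14 may have passed the filter through the day 7 libraries, so the counts of calls are a description. All 8 mitochondrially encoded transcripts were called higher. Their part in the result was not tested.

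At day 14, EGFP+ cells of both gates held the lowest levels of the study. The sum of the 7 transcripts other than Lyz1 ranged from 2.72 to 5.53 CPM for IMs and from 2.53 to 3.57 CPM for AMs. Of the 8, Sftpc, Scgb1a1 and Lyz1 passed the filter on low counts, and Lyz1 was called higher in IMs, against 10.8% of genes tested. None was called lower by edgeR or DESeq2, or at an unadjusted p under 0.05, against 10.2%. The log2 difference was 0.16 ± 0.53 SE for Sftpc (95% interval -0.89 to 1.21, adjusted p = 0.870) and 0.47 ± 0.48 for Scgb1a1 (-0.47 to 1.42, adjusted p = 0.547), intervals wide enough to hold a 2-fold difference. Without IM replicate 3 they were -0.48 and -0.05, and without AM replicate 2 Sftpc was at -0.04. Of the 5 others, Sftpb had 28 counts in IMs and 9 in AMs (ratio of CPM sums 2.96, 95% counting interval 1.36 to 7.14), Sftpa1 13 and 10, Cyp2f2 8 and 1, Sftpd 4 and 3, and Scgb3a2 2 and 2. Of the 8 neutrophil markers tested 5 were called higher in IMs, at sums of 137 to 211 against 92.1 to 112 CPM, and their part in the result was not tested.

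In EGFP+ AMs Sftpc, Scgb1a1 and Lyz1 reached the level the filter asks for (0.637 CPM) in all 3 day 14 libraries. Sftpa1, Sftpb, Sftpd, Scgb3a2 and Cyp2f2, with 10, 9, 3, 2 and 1 counts at day 14, reached it in none and passed the filter through the PBS and day 30 libraries, where they are high. These 5 had to differ, so no count over the 8 is read against the genes tested. Between PBS and day 14 after bleomycin edgeR called Sftpc and Scgb1a1 lower, as it did 27.6% of genes tested, and did not call Lyz1, where 27.3% of genes tested were called higher. From day 14 to day 30 it called Sftpc, Scgb1a1 and Lyz1 higher, as it did 19.6% of genes tested, and their day 30 libraries were all above their day 14 libraries, as for 28% of genes tested. The first of these comparisons spans both tables and the second lies within one. They share the day 14 libraries, so a low level there enters both.

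At day 30 the transcripts differed in where they stood against the PBS AM level. By edgeR, Lyz1, Scgb1a1, Scgb3a2 and Cyp2f2 were higher at day 30 than after PBS, against 24.8% of genes tested, and Sftpa1, Sftpb and Sftpc were lower, against 23.1%. DESeq2 called 7 as well. The 3 club cell genes and the surfactant genes thus stood on opposite sides of PBS, apart from Sftpd, which was not called. The median log2 difference of the 8 was 0.32, beside 0.02 over all genes tested. Table and group cannot be told apart in this comparison.

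**Figure D3:**
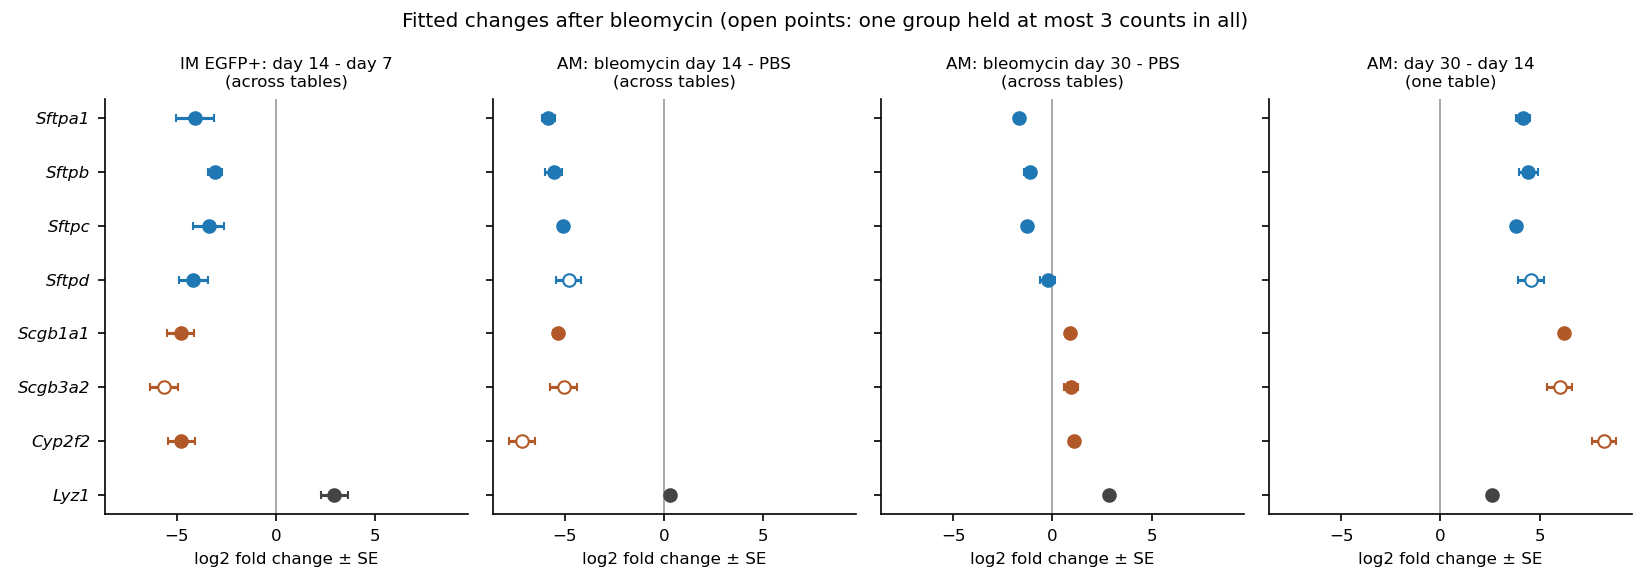
Log2 fold change with SE bars of the 8 transcripts in EGFP+ IMs (day 14 against day 7) and in EGFP+ AMs (day 14 against PBS, day 30 against PBS, day 30 against day 14); open points have a group with 3 or fewer counts. At day 30 against PBS, Scgb1a1, Scgb3a2, Cyp2f2 and Lyz1 lie above 0 and Sftpa1, Sftpb and Sftpc below.

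Markers of other cells rose in AMs over the same interval from day 14 to day 30. Over all genes tested, 19.6% were called higher and 18.7% lower. Called higher were 9 of 10 neutrophil markers (1 was lower), 8 of 8 B cell markers, 8 of 8 T cell markers, 5 of 6 NK cell markers tested, 7 of 7 fibroblast markers tested, 5 of 7 endothelial markers tested, 5 of 8 dendritic cell markers and 3 of 3 erythroid markers tested. The neutrophil sum rose from 92.1 to 112 CPM to 559 to 644 CPM, the B cell sum from 107 to 133 to 548 to 644 CPM, the T cell sum from 19.9 to 39.9 to 93.4 to 112 CPM, the fibroblast sum from 4.98 to 8.02 to 78.5 to 84.6 CPM, and the erythroid sum from 0.0743 to 0.971 to 20.2 to 29.2 CPM. The neutrophil granule gene Camp and the globin gene Hba-a2 had no count in any day 14 AM library. Camp and the erythroid markers tested thus passed the filter on low counts through the PBS and day 30 libraries. Other markers that were low at day 14 may have done so as well, so the counts of calls are a description. S100a9, a calcium-binding protein gene of neutrophils, stood at 0.873 ± 0.434 CPM at day 14 and 191 ± 17.8 CPM at day 30 (SD, n = 3). Mitochondrially encoded transcripts were lower in 7 of 8 cases. The part of these in the result was not tested.

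Between the PBS and day 30 AMs the lists differed from one another. Over all genes tested, 24.8% were called higher at day 30 and 23.1% lower. The B cell sum was higher after PBS (960.1 to 1109.7 CPM) than at day 30, with 4 of 8 called lower at day 30. The fibroblast sum was 8.73 to 12.5 CPM after PBS, with 7 of 7 markers tested called higher at day 30, and the neutrophil sum was 138 to 217 CPM, with 7 of 10 called higher. The erythroid sum was 1.18 to 2.69 CPM, with 3 of 3 markers tested called higher. Markers that were low after PBS may have passed the filter through the day 30 libraries. The part of these markers in the result was not tested.

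**Figure D4:**
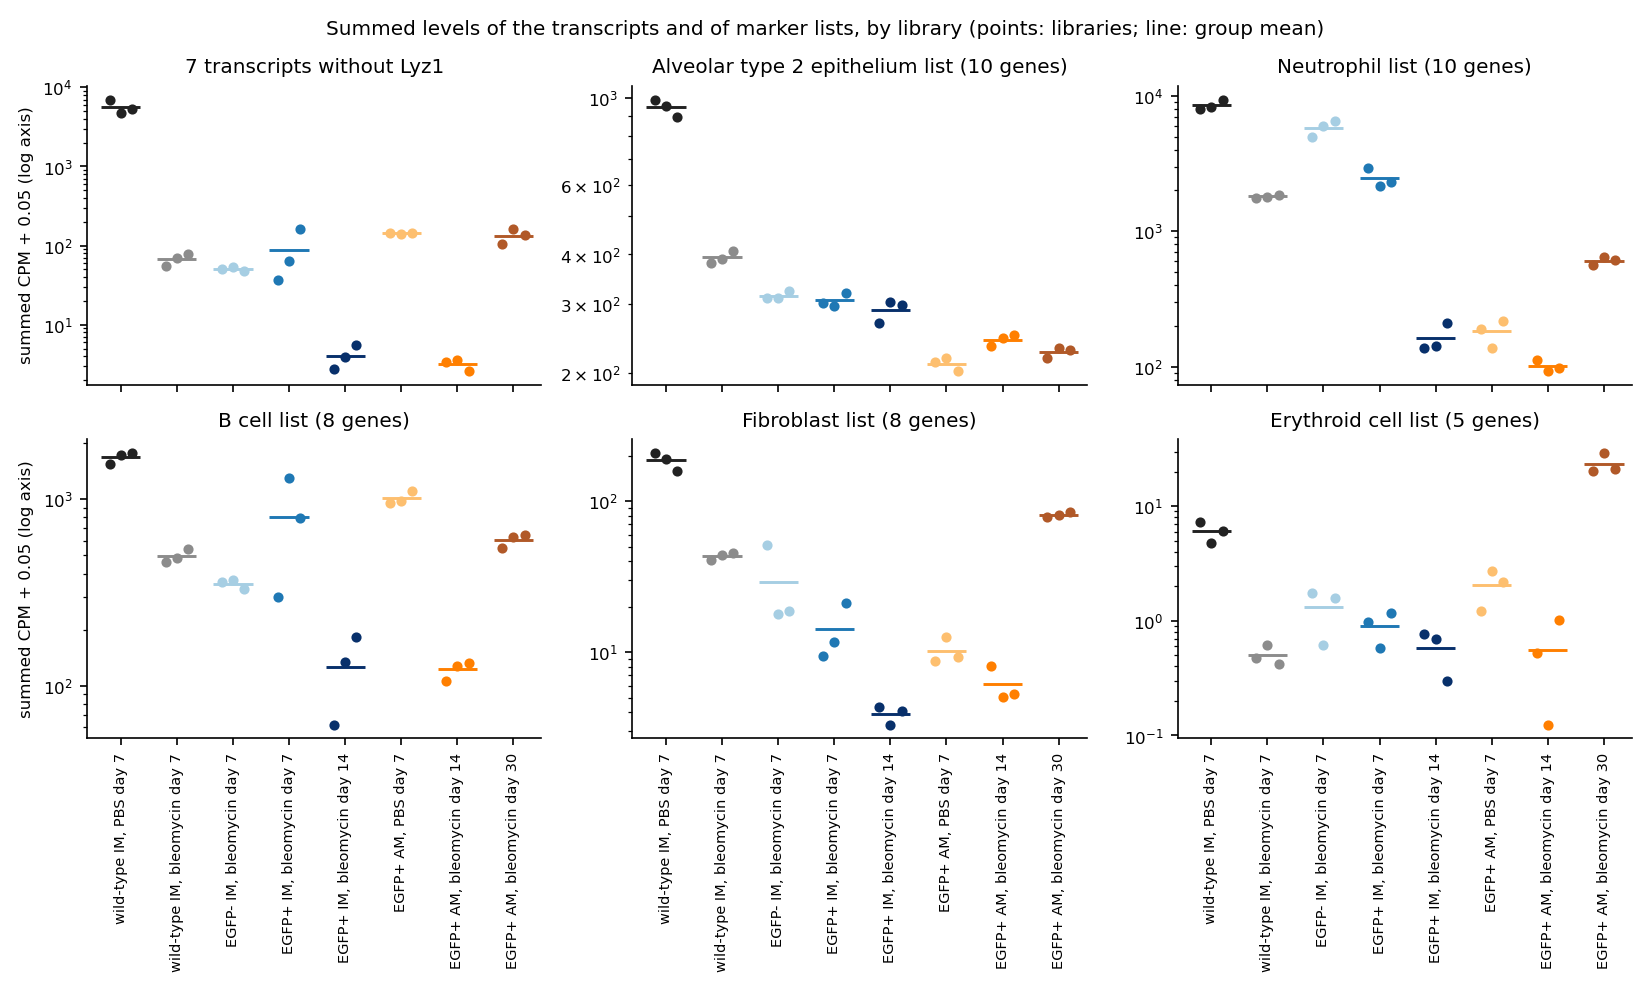
Summed level per library (CPM plus 0.05, log axis) of the 7 transcripts other than Lyz1 and of the lists of alveolar type 2, neutrophil, B cell, fibroblast and erythroid markers, over the 8 groups. The 7 transcripts and the other 4 lists are all lower in the day 14 AMs than in the day 30 AMs, while the alveolar type 2 list is at 235 to 250 and 218 to 231 CPM.

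Ratios between the transcripts, which do not depend on the scaling of a library, also differed between groups. The Scgb1a1 count was 1.91 to 2.78 times the Sftpc count in the wild-type PBS IMs and 4.10 to 5.60 times in the wild-type bleomycin IMs. In AMs it was 0.774 to 1.19 times after PBS and 3.96 to 4.32 times at day 30. Both pairs of groups were without overlap, with more Scgb1a1 per Sftpc in the bleomycin group. The wild-type pair is the one the transcripts were chosen on, and the AM pair spans both tables. With 3 against 3 libraries an exact permutation test cannot go below p = 0.1, so these ratios are a description. Other bleomycin groups did not show this. EGFP- (1.54 to 3.58) and EGFP+ (1.63 to 4.83) IMs at day 7 overlapped each other and the wild-type PBS IMs. At day 14 the few counts left the ratio at 0.762 to 1.75 in IMs and 0.429 to 1.5 in AMs, which overlapped the PBS AMs.

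Within the surfactant genes, Sftpc gave 64.0% to 66.0% of the counts of all 4 in the wild-type PBS IMs, 65.6% to 66.7% in the PBS AMs and 62.6% to 68.2% in the day 30 AMs. The ranges of these 3 groups overlapped, although their Sftpc levels did not. In the wild-type bleomycin IMs the share of Sftpc was 45.6% to 57.6% and in the EGFP- IMs 41.5% to 52.7%, both below the PBS libraries. Sftpb took the larger share there, 26.3% to 32.8% and 24.7% to 34.3%, against 13.4% to 15.5% in the wild-type PBS IMs. Among the club cell genes, Cyp2f2 counts per 100 Scgb1a1 counts overlapped between the wild-type PBS IMs (8.39 to 10.4), the wild-type bleomycin IMs (10.2 to 11.4) and the day 30 AMs (8.32 to 12.1). Scgb3a2 counts per 100 Scgb1a1 counts were 3.29 to 3.67 in the wild-type PBS IMs and 6.12 to 9.04 after bleomycin, with no overlap, and 3.70 to 4.42 in the day 30 AMs.

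**Figure D5:**
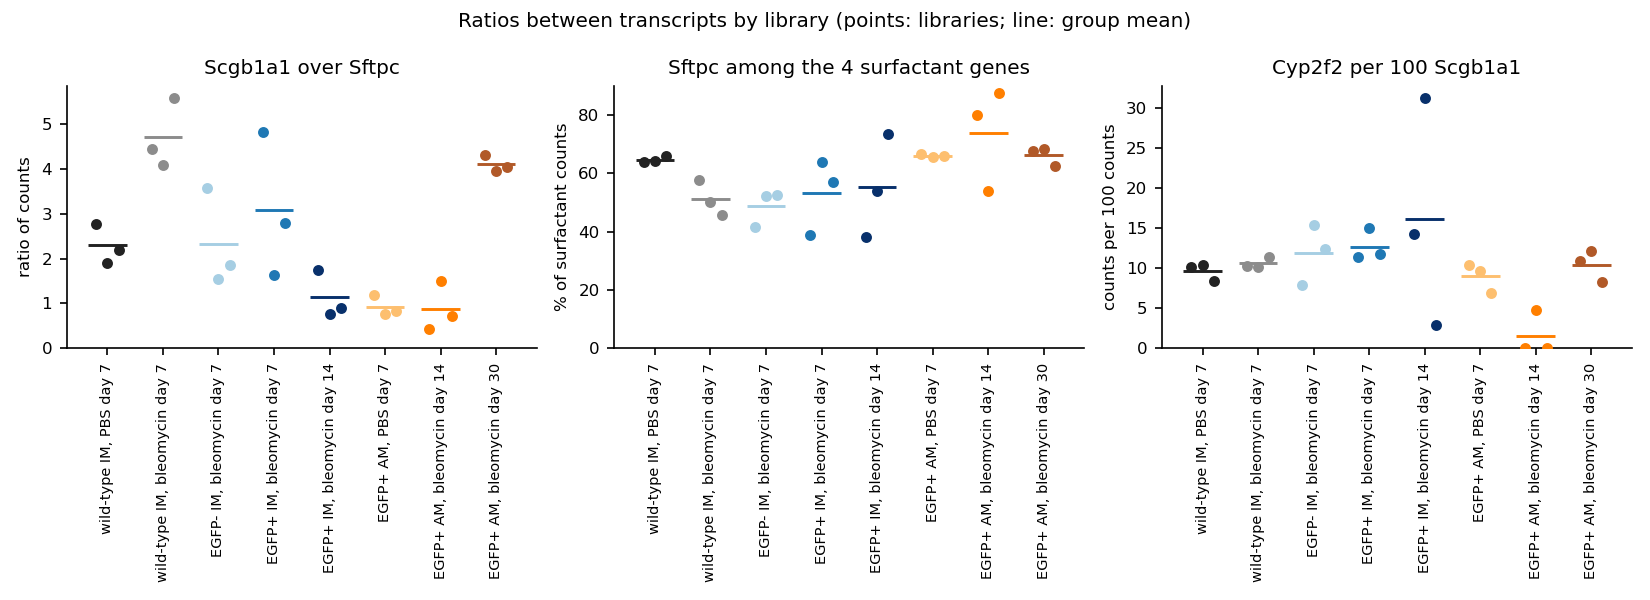
Ratios per library in the 8 groups: Scgb1a1 counts per Sftpc count, Sftpc as a percentage of the 4 surfactant gene counts, and Cyp2f2 counts per 100 Scgb1a1 counts. The wild-type bleomycin IMs and the day 30 AMs have the highest mean Scgb1a1 per Sftpc, with libraries at 4.10 to 5.60 and 3.96 to 4.32.

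The order of the groups separates the transcripts as well. The wild-type PBS IMs were highest for all 8, with no overlap with the next group except for Lyz1. For Sftpa1, Sftpb and Sftpc the PBS AMs came next, apart from the group after them, and for Scgb1a1, Scgb3a2 and Cyp2f2 the day 30 AMs came next. For the 7 transcripts other than Lyz1, the IMs and AMs at day 14 were the lowest groups, overlapping each other and no other group. For Lyz1 the wild-type PBS IMs, the EGFP+ IMs at day 14 and the day 30 AMs were the top groups and each overlapped the next, while the EGFP- IMs at day 7 were lowest and apart.

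Across the 24 libraries, 11754 genes with a mean of at least 1 CPM were ranked by Pearson's r with Sftpc and Scgb1a1 on log2(CPM + 1). This is a description: the points share libraries and groups, and the wild-type PBS IMs weigh heavily. Outside the 8 transcripts, the genes most like Sftpc were the lung chemokine gene Cxcl15 (0.970), the B cell gene Tnfrsf13c (0.968), the phosphate transporter gene Slc34a2 (0.966), Bhlha15 (0.961) and Fam129c (0.950). Those most like Scgb1a1 were Tnfrsf13c (0.968), Dennd5b (0.956), Dtx1 (0.956), Nedd4 (0.955) and the immunoglobulin light chain gene Iglc2 (0.951). With Spearman's rho or with log2(CPM + 0.1), 2 of the 5 genes were the same for Sftpc and 1 of the 5 for Scgb1a1. Among the 8, Sftpa1 had an r of 0.990 with Sftpc and Cyp2f2 an r of 0.976 with Scgb1a1, and Lyz1 had 0.409 and 0.427.

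Other genes of alveolar type 2 cells were present in the same libraries. Slc34a2, which takes up phosphate in these cells, had a group mean of 153 CPM in the wild-type PBS IMs, 0.972 CPM in the wild-type bleomycin IMs, 5.50 CPM in the PBS AMs, 0.022 CPM in the day 14 AMs and 1.53 CPM in the day 30 AMs. Cxcl15 went from 140 to 2.18 CPM in the wild-type IMs, and Lamp3, a lamellar body membrane protein gene, from 58.1 to 0.699 CPM. Other listed genes did not behave so. Abca3, the lipid pump of lamellar bodies, stood at 121 and 94.8 CPM, Napsa, an aspartic protease gene, at 299 and 217 CPM, and Lpcat1, an acyltransferase gene of surfactant lipid, at 59.9 and 57.1 CPM. In the wild-type bleomycin IMs 6 of 10 alveolar type 2 markers were under 10% of the PBS level, and the other 4 kept the summed list at 381 to 409 CPM against 893 to 989.5 CPM. From day 14 to day 30 in AMs, 4 of the 9 tested were called higher and 1 lower by edgeR, beside 19.6% and 18.7% of genes tested. Slc34a2, one of those called higher, had 1 count at day 14 and 72 at day 30. Lamp3, also called higher, had few counts at day 14 as well. Both passed the filter through groups where they are high, so the count of calls is not read against these shares.

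Of 9 other club cell markers, 7 were under 10% of the PBS level in the wild-type bleomycin IMs. Aldh1a1, a retinal dehydrogenase gene, went from 73.0 to 2.30 CPM and Bpifa1, a secreted airway defence protein gene, from 57.9 to 4.33 CPM. Gsto1, a glutathione transferase gene, was above the PBS level at 98.6 against 82.5 CPM. In AMs Aldh1a1 was higher at day 30 than at day 14 (log2 fold change 1.99, adjusted p = 2.64e-04 by edgeR), and Bpifa1 had 3 counts at day 14 and 98 at day 30. Of the 4 club cell markers tested 2 were called higher, these 2 genes, and 1 lower, beside 19.6% and 18.7% of genes tested. Bpifa1 passed the filter on low counts through groups where it is high, so that count is not read against these shares. Of 10 general epithelial markers, 6 were under 10% of the wild-type PBS IM level in the PBS AMs and 3 were above it (Krt19, Epcam and Cdh1), with a median of 5.27%. Krt19, a keratin gene, had a mean of 12.4 CPM in the wild-type PBS IMs and 925 CPM in the PBS AMs, and Epcam, an adhesion protein gene, 6.82 and 182 CPM. Cdh1, the E-cadherin gene, stood at 29.9 and 70.9 CPM.

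The wider surfactant pathway was listed as 17 genes that make, process or regulate surfactant, of which 12 were tested in the fit of reporter IMs and 12 in that of AMs. From day 14 to day 30 in AMs 4 were called higher by edgeR (Slc34a2, Lamp3, Adgrf5 and Lpcat2) and 3 lower (Napsa, Ctsc and Ctsh), beside 19.6% and 18.7% of genes tested. Slc34a2 and Lamp3 had 1 and 5 counts at day 14, so they passed the filter through groups where they are high. In EGFP+ IMs from day 7 to day 14, 5 were called higher and 2 lower (Slc34a2 and Adgrf5), beside 25.3% and 26.9%. Between EGFP+ and EGFP- IMs at day 7, Abca3 and Cebpa were higher, both by 0.46 on the log2 scale, and Napsa was lower by -0.48, beside 17.2% of genes tested called higher and 17.6% lower. Napsa, Ctsh and Ctsc, which encode proteases, did not fall with the surfactant genes in the wild-type IMs: Ctsh stood at 279.7 CPM after PBS and 627 CPM after bleomycin and Ctsc at 397 and 1089 CPM. Cebpa, a transcription factor gene that macrophages also express, stood at 112 and 466 CPM. Nkx2-1, the factor whose core motif is shown above, had a mean of 8.30 CPM in the wild-type PBS IMs.

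Genes by which macrophages take up and clear surfactant were listed as 16, all tested. The most abundant were Lpl, lipoprotein lipase, Lrp1, an endocytic receptor gene, and Calr, the calreticulin gene, at 145, 1027 and 567 CPM in the wild-type PBS IMs and 3518, 2364 and 1231 CPM in the PBS AMs. Between EGFP+ and EGFP- IMs at day 7, where none of the 8 transcripts was called, 10 were called higher and 1 lower by edgeR, beside 17.2% and 17.6% of genes tested. Lpl was higher by 1.77 on the log2 scale, the lipid receptor gene Cd36 by 1.61, the scavenger receptor gene Marco by 3.89 and Pparg, a regulator of alveolar macrophage lipid metabolism, by 1.12. From day 14 to day 30 in AMs, 3 of the 16 were higher (Cd36 by 2.25, Pla2g15 by 0.36 and Abcg1 by 0.22) and Csf2rb was lower by -0.22, beside 19.6% and 18.7% of genes tested. The count in EGFP+ IMs from day 7 to day 14 was 7 higher and 2 lower, beside 25.3% and 26.9% of genes tested. In AMs it was 6 higher and 4 lower at day 14 against PBS, beside 27.3% and 27.6%, and 4 and 4 at day 30 against PBS, beside 24.8% and 23.1%.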

How the data were processed

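The submitters' processing notes name FastQC 0.11.5 and Trimmomatic 0.38 for the reads, HISAT2 2.1.0 and the GRCm38 build for alignment, SAMtools with no version, and featureCounts 1.6.3. The annotation release and strand setting are not given in the sources used here. Raw gene-level counts, as deposited by the authors, fill 2 tables, of 49585 genes by 15 libraries and 55487 genes by 9 libraries. Another 3 columns match no sample and are left out. The join by Ensembl ID keeps 49022 genes and at least 99.486% of each library's counts.

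Levels are CPM of the total count. Folds, SE and p-values are from edgeR 4.0.16 in R 4.3.3 (TMM factors, filterByExpr, robust quasi-likelihood F test, 2-sided), with Benjamini-Hochberg adjustment over all genes tested and calls at an adjusted p under 0.05. The SE is the absolute log2 fold change over the square root of F. Fits were made of 5 sets of libraries: wild-type IM (6), reporter IM (9), AM (9), EGFP+ at day 14 (6) and PBS (6). Groups with 3 or fewer counts are given as counts with an exact 95% interval of the ratio. The fit was also run on simulated counts that gave all genes the same spread between libraries, so that run does not bear on the calls of the 8 transcripts. The 8 transcripts were taken by symbol, and the lists are epithelial, other cell and surfactant genes. The members and lists were chosen with earlier results of these data known, so comparisons with the wild-type PBS libraries carry no test. Named are the 8 transcripts, Lyz2, the genes used to check labels, the 5 genes most like Sftpc and Scgb1a1, and the 3 most abundant genes of each epithelial or surfactant list (sums stand for the other lists), and further genes chosen after their values were seen. Same-numbered IM and AM libraries at day 14 deviated together (r = 0.365, 0.336 and 0.372 over 9036 genes), and the value with the replicate block stands beside that result. Alternatives were other scaling, DESeq2 1.42.0, no filter, other fits, the replicate block and leaving out each library.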

Additional observations from a re-analysis of the deposited data

How the results depend on the processing

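Of 43 tested values of the 8 transcripts, 35 kept their side of the threshold under all alternatives. The 43 include the folds given above without a p-value, whose transcripts passed the filter through groups where they are high. For those a kept call was to be foreseen, so these counts do not measure how stable the results are. Over 556 alternatives, 14 lost and 4 gained a call. No called value changed sign, and 7 values that were not called did so in 8 alternatives, each without a single library. Of 192 alternatives of the values without a test, 11 moved by more than the SE of the value. The genes most like Sftpc kept 2 of 5 with Spearman's rho or another pseudocount, and those most like Scgb1a1 1 of 5.

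Between EGFP+ and EGFP- IMs, 1 transcript was called higher with only the groups compared, and 0 to 2 without single libraries. Over all genes 5206 were called there, and 3280 to 4221 without single libraries. Between IMs and AMs at day 14, 0 transcripts were called higher without the filter or with the replicate block, and 0 to 1 without single libraries. Over all genes 2832 were called, 5906 with all 24 libraries in 1 fit and 1840 to 3326 without single libraries. At day 14 against PBS in AMs, 0 to 1 were called higher without single libraries. The cause was not tested.

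The replicate block changed the calls of the 8 transcripts in the comparison of IMs and AMs at day 14 alone, where the count over all genes went from 2832 to 3648. In the other comparisons it moved the count over all genes by less than 1.5 times (5206 to 4907 for EGFP+ against EGFP- IMs). Same-numbered libraries there did not all deviate together, except weakly between wild-type PBS IMs and PBS AMs (r = 0.0298, 0.142 and 0.142). Scaling by totals alone shifted the median log2 change of all genes by -0.22 in EGFP+ IMs from day 7 to 14, and by -0.19 and -0.11 in AMs at days 14 and 30 against PBS. The share of calls that were higher went from 48.4% to 27.8%, 49.7% to 32.2% and 51.8% to 39.1%, and from 51.2% to 62.4% for day 30 against day 14 AMs and 51.3% to 38.3% for IMs against AMs at day 14. Depth limits Sftpd, Scgb3a2 and Cyp2f2 at day 14, where a group held 1 to 8 counts. It also limits Sftpa1 and Sftpb in the day 14 AMs, with 10 and 9 counts.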
